A study of Mus musculus with 6 samples.

Results

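Messenger RNAs of the machinery that shortens, decaps and degrades other RNAs were followed in whole testes of mice at postnatal day 4. The genes encode the RNA exosome and its helicases, the CCR4-NOT, PAN and other deadenylases, the decapping enzyme with its cofactors and the XRN exonucleases, the UPF and SMG factors of nonsense-mediated decay, and the ribosome rescue pair PELO and HBS1L. Members were chosen by name, as rows of the deposited gene count table whose identifiers map to 42 mouse gene symbols, a rule that uses no measured value. The list of symbols itself was drawn up with earlier results of these data known. All 42 were found among the 54232 genes of the table, and 41 of them were among the 20153 genes with enough counts to be tested.

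The study compared 3 libraries from testes labelled Dis3l2 WT (WT) with 3 labelled Dis3l2 cKO, a conditional knockout (cKO). Both groups were whole testes of B6D2F1 mice at postnatal day 4, with no treatment named, and the stated purpose was a list of genes expressed differently in knockout and control testes. Dis3l2 encodes a cytoplasmic exoribonuclease that acts on RNAs with oligouridine tails and does not need the exosome. The labels name neither the Cre driver nor the deleted exons, nor do they say whether WT mice carried Cre or floxed alleles, or whether the 3 samples of a group were separate animals, and p-values therefore measure only how far these samples spread, which may be technical.

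Most cytoplasmic messenger RNAs are degraded after their poly(A) tail has been shortened by the PAN2-PAN3 and CCR4-NOT deadenylases. The body of the message is then removed from the 5′ end, by decapping and the exonuclease XRN1, or from the 3′ end, by the RNA exosome working with the SKI helicase complex. In the nucleus the exosome is fed by the helicase MTREX. Messages with a premature stop codon are marked by UPF1 and its partners and cut or deadenylated through the SMG proteins, and in the testis this pathway is known for its work on the long 3′ ends of germ cell messages.

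The libraries held 26126694 to 43265614 counts. Dis3l2 itself, counted over the whole gene, had 32.8, 30.97 and 32.1 CPM in WT against 30.6, 30.96 and 33.6 CPM in cKO, where CPM is a gene's count scaled by its library's size, with that size corrected for composition by TMM. These values overlapped between the groups, and since a whole-gene count includes exons outside any deleted part, they do not check the genotype labels. Germ cell messages differed between the groups: 12 of 16 germ cell markers fell, 0 rose, and their summed level was 1321 to 1388 CPM in WT and 719 to 776 CPM in cKO, with Dazl at a log2 fold change of -0.76 and Tex15 at -1.21. Of 12 Sertoli cell markers 3 rose, of 8 Leydig cell markers 3 rose, of 8 macrophage and leukocyte markers 4 rose, 1 of 6 endothelial markers rose, 2 of 7 stromal and 2 of 7 duct epithelium markers fell, and 0 of 6 peritubular myoid markers passed. The most abundant of them were Clu (log2 fold change 0.28) and Aard (0.02) for Sertoli cells, Nr5a1 (0.22) and Hsd3b1 (-0.05) for Leydig cells, Mrc1 (0.35) and Csf1r (0.36) for macrophages, and Col1a1 (-0.45, not past the threshold) and Col3a1 (-0.30) for stroma, where the values went both ways: Pdgfra (0.10) and Nr2f2 (0.18) had every cKO library above every WT library without passing. The rest of the most abundant were Cdh5 (0.14) and Kdr (-0.10) for endothelium, Epcam (-0.45) and Krt18 (-0.08) for duct epithelium, and Acta2 (-0.05) and Myh11 (0.18) for myoid cells. Duct epithelium values also went both ways, with 5 below 0 and 2 above it, Krt8 (0.45) and Pax2 (0.37), neither past the threshold. No marker was at 0 in any library. The summed stromal level was 11464 CPM in cKO replicate 1, inside the WT range of 11070 to 11991 CPM, but 8438 and 8495 CPM in cKO replicates 2 and 3, and the summed myoid level was 1892 CPM in cKO replicate 1 against 1407 and 1428 CPM in the other cKO libraries. In bulk tissue fewer cells of a type and less RNA per cell cannot be told apart, and the part of these shifts in any result on the decay genes was not tested.

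The decay machinery was expressed at middle to high levels in the postnatal day 4 testis. Levels per length were compared as TPM (counts divided by the length of a gene's merged exons and scaled to the same sum in every library). The median decay gene stood at the 75.8th percentile of all genes kept and the lowest, Exosc7, at the 48.1st percentile. Xrn2, the nuclear 5′ to 3′ exonuclease that also ends transcription, had the highest level, 343 ± 3.56 TPM in WT (SD, n = 3).

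Within the exosome the order in WT was led by its cap subunit Exosc3 at 154 ± 3.75 TPM (SD, n = 3), with the cap subunit Exosc1 at 124 ± 0.459 TPM. The nuclear exonuclease subunit Exosc10 stood at 114 ± 3.26 TPM and Mtrex, the nuclear helicase, at 109 ± 2.16 TPM. The SKI helicase Skiv2l, at 30.98 ± 2.21 TPM, and its scaffold Ttc37, at 15.2 ± 0.934 TPM, stood lower, and the ring subunit Exosc7 was lowest at 11.1 ± 0.983 TPM. Exosome subunits, which sit in the complex in equal numbers, thus had message levels that differed by more than their replicate spread.

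Among the deadenylases Cnot2, a CCR4-NOT structural subunit, had 128 ± 2.77 TPM in WT, and the scaffold Cnot1 and the catalytic Cnot6 had 102 ± 1.99 and 103 ± 0.524 TPM, which did not differ beyond their spread. Parn, which trims telomerase and small nucleolar RNAs, was the lowest of the 12 at 28.7 ± 0.522 TPM. The nonsense-mediated decay helicase Upf1 had 122 ± 7.53 TPM and its partner Upf2 108 ± 2.79 TPM, while the kinase Smg1 had 31.7 ± 0.761 TPM. Dcp2, the decapping enzyme, had 42.97 ± 0.848 TPM against 25.4 ± 0.387 TPM for the cytoplasmic exonuclease Xrn1. These orders depend on the length used. With the longest transcript in place of merged exons, Cnot1 led the deadenylases at 168 TPM against 142 TPM for Cnot2 and 94.9 TPM for Cnot6. Toe1 (38.5 TPM) was then the lowest of the 12, with Parn at 42.6 TPM. Dcp2 (34.8 TPM) then stood below Xrn1 (37.0 TPM), and Hbs1l (34.9 TPM) passed Pelo (19.1 TPM). Pan3 moved from 31.9 to 69.2 TPM, Cnot4 from 68.7 to 137 TPM, Exosc9 from 29.1 to 44.3 TPM, Exosc8 from 64.2 to 96.3 TPM and Exosc1 from 124 to 70.4 TPM. Mtrex moved from 109 to 152 TPM, level with Exosc3 at 152 TPM.

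**Figure D1:**
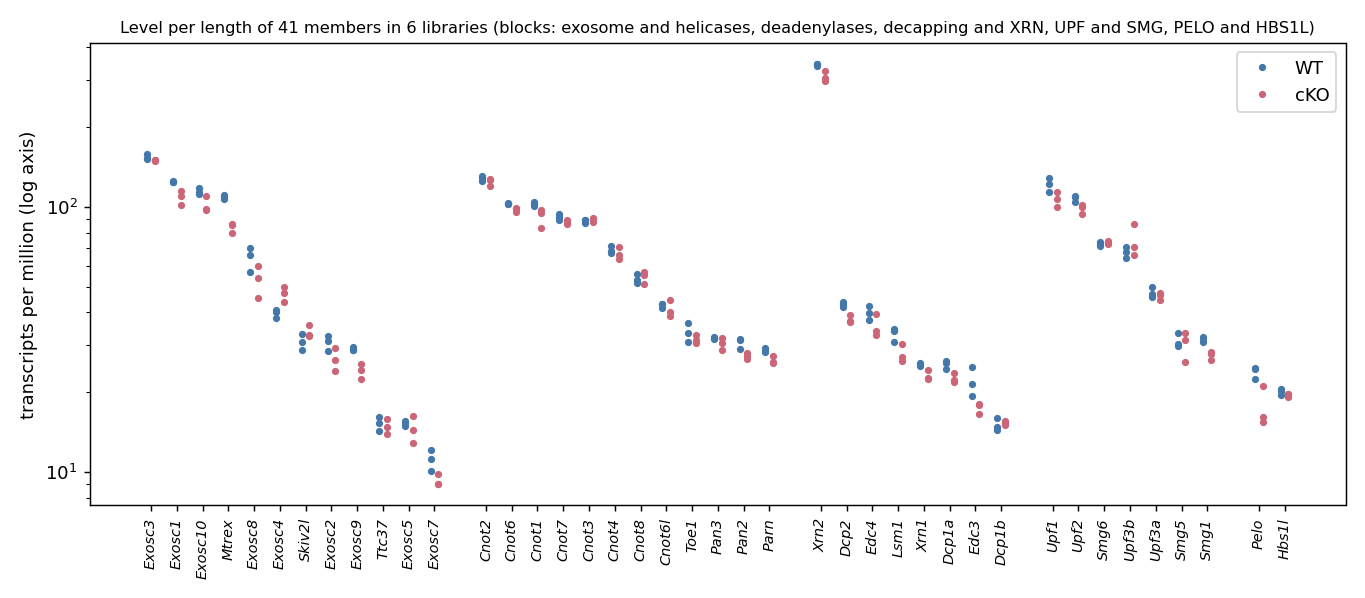
Level per length of the 41 decay genes with counts, in TPM on a log axis, 1 point per library (3 WT, blue, and 3 cKO, red), in blocks by role and ordered by mean level within each block. Xrn2 stands highest at about 343 TPM in WT and Exosc7 lowest at about 11.1 TPM, and for most genes the colours lie at nearly the same height.

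Exosc6, an exosome ring subunit, was listed at 0 counts in all 6 libraries and had no measurable level. Its single exon of 1326 bases (chr8:111056339-111057664, GRCm38, plus strand) lies wholly inside an exon of Aars, the alanyl-tRNA synthetase gene, on the same strand, which leaves 0% of its bases to itself. Reads over more than 1 gene were not counted, so this 0 sets no upper limit on its expression.

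Of the 41 decay genes tested, 1 fell in cKO testes, 0 rose and 40 did not pass the test (edgeR quasi-likelihood test, Benjamini-Hochberg adjusted p under 0.05 over all genes). The gene that fell was Mtrex. Over all genes 8.34% passed in either direction, 4.94% lower and 3.4% higher, so the decay genes passed at a share near or under the background. At an unadjusted p under 0.05, 12 decay genes were lower and 1 was higher, against 12.1% lower and 11.3% higher among all genes, a larger share than the background on the lower side and a smaller one on the higher side. In DESeq2 4 were lower (Mtrex, Exosc9, Edc3 and Smg1) and 1 higher (Exosc4), against 1224 lower and 905 higher of all 20153 genes.

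Their fitted changes were small and lay mostly on one side. Of the 41, 32 had a log2 fold change of cKO over WT below 0, against 48.3% of all genes, and their median was -0.08 against 0.01 over all genes. All 3 cKO libraries lay below all 3 WT libraries for 14 decay genes, against 14.6% of all genes, and above them for 2, against 13.6%, and the groups overlapped for 25. Standard errors were 0.05 to 0.13 on the log2 scale, with a median of 0.12 over all genes kept. With library size alone as the scaling the median of the decay genes was -0.10.

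The subgroups differed in where their medians lay. The median log2 fold change was -0.14 for 12 exosome and helicase genes, -0.13 for 8 decapping and XRN genes, -0.03 for 12 deadenylase genes and 0.00 for 7 UPF and SMG genes. Those lower at an unadjusted p under 0.05 were 5 of 12, 4 of 8, 0 of 12 and 2 of 7 in that order, against 12.1% of all genes, and the 1 higher was Exosc4, against 11.3%. In cKO replicates 1, 2 and 3 the median log2 deviation from the WT mean was -0.18, -0.06 and -0.05 for exosome and helicase genes. For decapping and XRN genes it was -0.18, -0.13 and -0.14. It was -0.0050, -0.0088 and -0.054 for deadenylase genes and -0.054, 0.044 and -0.044 for UPF and SMG genes. The summed TPM of each of these subgroups was lower in every cKO library than in every WT library. Its means in WT and cKO were 738 and 667 for exosome and helicases and 547 and 490 for decapping and XRN. They were 803 and 769 for deadenylases and 479 and 457 for UPF and SMG. These differences between subgroups are descriptions and were not tested.

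**Figure D2:**
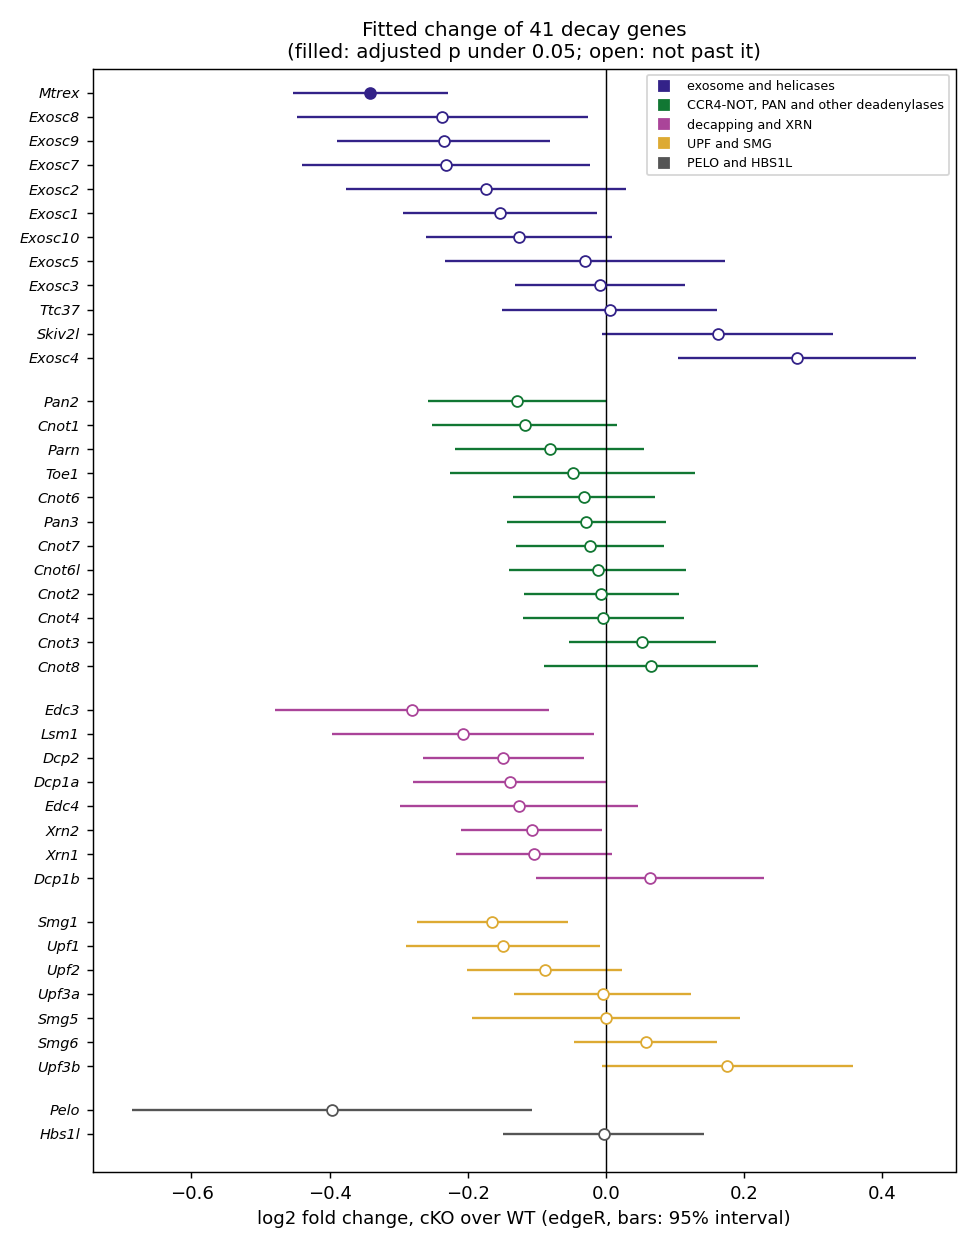
Fitted log2 fold change of cKO over WT for 41 decay genes with 95% intervals from the edgeR fit, coloured by role and ordered by change within each block. Mtrex, at -0.34, is the only filled point (adjusted p under 0.05), the deadenylase intervals all lie between -0.26 and 0.22, and Pelo, at -0.40, has the widest interval.

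Among the 12 exosome and helicase genes tested 1 fell and 0 rose (4.94% and 3.4% of all genes), and at an unadjusted p under 0.05 5 were lower and 1 higher (12.1% and 11.3% of all genes). Mtrex, the helicase that unwinds nuclear RNA and threads it into the exosome as part of the TRAMP, NEXT and PAXT assemblies, fell in cKO testes. It had 192, 197 and 192 CPM in WT against 156, 157 and 146 CPM in cKO. Every cKO library lay below every WT library, and the gap between the groups was several times the SD of either. The means were 194 ± 3.25 CPM in WT against 153 ± 6.28 CPM in cKO (both SD, n = 3), a log2 fold change of -0.34 (SE 0.05, adjusted p = 0.0017) in the edgeR quasi-likelihood test. It passed in all 15 alternatives run, at log2 fold changes of -0.36 to -0.31 and adjusted p of 6.2e-07 to 0.0235. Mtrex is ENSMUSG00000016018, at chr13:112867418-112927398 on the minus strand of GRCm38, and none of its exon bases is shared with a gene on its strand, while 7.1% are antisense to Plpp1. The germ cell marker sum was lower by a larger factor in the same cKO libraries, and its part in the fall of Mtrex was not tested.

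Exosc4, a ring subunit, lay higher in cKO without passing the test. It had 21.9, 20.6 and 21.9 CPM in WT against 27.3, 24.4 and 26.3 CPM in cKO, and all 3 cKO libraries lay above WT. The log2 fold change was 0.28 (SE 0.08, adjusted p = 0.0512), and it passed with a filter at 1 CPM, DESeq2, limma-voom or the robust edgeR fit, at adjusted p of 0.0319 to 0.0493. Of its exon bases 19.8% are antisense to Oplah, and counting was by strand.

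Exosc5, Exosc7, Exosc8 and Exosc9, the other ring subunits measured, did not pass. Exosc9, given in full after its values were seen, had 38.3, 37.6 and 37.9 CPM in WT against 32.2, 34.4 and 30.2 CPM in cKO, which did not overlap. The fitted log2 fold change was -0.23 (SE 0.07, adjusted p = 0.0634), past the threshold in 4 of the alternatives, among them DESeq2 (adjusted p = 0.0407). Exosc8 and Exosc7 stood at -0.24 (SE 0.10, adjusted p = 0.163) and -0.23 (SE 0.10, adjusted p = 0.17), of which only Exosc7 had no overlap between groups. Exosc8 passed without a filter on low counts (adjusted p = 0.0271), and without cKO replicate 3 it was at -0.14. The ring subunit Exosc5 was at -0.03 (SE 0.09), with overlapping libraries.

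The cap subunits and the nuclear exonuclease did not pass. Exosc3 had 57.7, 56.3 and 56.1 CPM in WT against 56.04, 56.9 and 56.2 CPM in cKO, all within a span of about 2 CPM, for a log2 fold change of -0.01 with a 95% interval of -0.13 to 0.11. Exosc1 was at -0.15 (SE 0.06, adjusted p = 0.177) with no overlap, and Exosc2 at -0.17 (SE 0.09, adjusted p = 0.295) with overlap, or -0.11 without cKO replicate 2 and -0.26 without cKO replicate 3. The nuclear exonuclease Exosc10 was at -0.13 (SE 0.06, adjusted p = 0.251), or -0.19 without cKO replicate 3.

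The cytoplasmic SKI helicase Skiv2l had 39.4, 42.7 and 46.3 CPM in WT against 45.98, 46.3 and 51.3 CPM in cKO. The highest WT library lay above the lowest cKO library, so the groups overlapped, and the log2 fold change was 0.16 (SE 0.08, adjusted p = 0.229), or 0.11 without WT replicate 1 or without cKO replicate 3. Its partner Ttc37, the tetratricopeptide scaffold of the SKI complex, was at 0.01 with a 95% interval of -0.15 to 0.16.

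**Figure D3:**
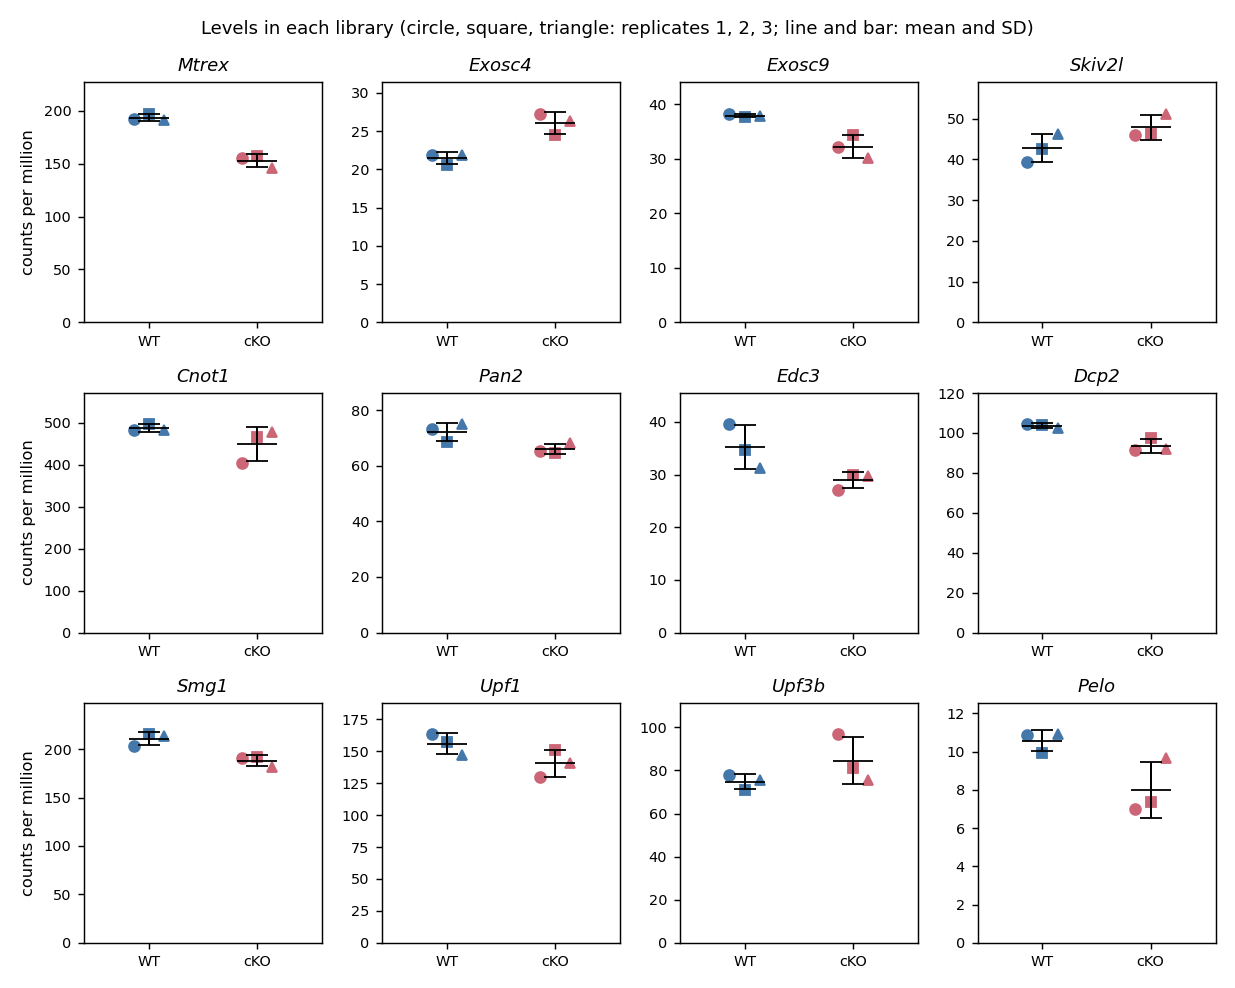
Level in CPM in each library for 12 decay genes, with axes from 0, 1 symbol per replicate, and the mean and SD of each group (n = 3). Mtrex is the only one of the 12 past the threshold, with WT at 192 to 197 and cKO at 146 to 157 CPM, and the symbols of Skiv2l, Upf1 and Upf3b overlap between groups.

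The start of Mtrex is printed because Mtrex was the only decay gene that passed and because another gene starts in the same window. The sequence covers 250 bases before to 50 bases after the RefSeq start site (chr13:112927331-112927630, minus strand, GRCm38.p6), is written 5′ to 3′ on the strand of Mtrex, and has in capitals its match to AAGATGGCG, the core of the sites bound by the zinc finger protein YY1.
Mtrex: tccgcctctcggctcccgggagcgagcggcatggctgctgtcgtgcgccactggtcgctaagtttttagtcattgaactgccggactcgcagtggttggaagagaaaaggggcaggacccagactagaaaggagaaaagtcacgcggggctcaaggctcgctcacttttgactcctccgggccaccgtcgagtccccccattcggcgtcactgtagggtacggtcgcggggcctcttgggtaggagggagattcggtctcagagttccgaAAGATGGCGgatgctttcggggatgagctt
The match begins 20 bases after the Mtrex start. Dhx29, which encodes a helicase that helps ribosomes scan structured 5′ ends, starts on the other strand at base 177 of the run, counted from its 5′ end. The deposited gene models of the pair begin 56 bases apart (Dhx29 at chr13:112927454-112969432, plus strand).

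Dhx29 fell as well. It had 84.5, 81.6 and 83.5 CPM in WT against 67.8, 73.4 and 69.7 CPM in cKO, with no overlap between the groups. Its log2 fold change was -0.24 (SE 0.06, adjusted p = 0.0195) in the edgeR quasi-likelihood test, and it did not pass without WT replicate 1, 2 or 3 (adjusted p up to 0.0931). The pair was looked at after the fall of Mtrex was known.

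Head-to-head starts of this kind were then counted. Of the 41, 13 (31.7%) had a protein-coding gene on the other strand whose 5′ end lay within 1000 bases, against 2074 of 15298 protein-coding genes kept (13.6%), a description made after the Mtrex values were seen. Of the 13 neighbours 2 passed the edgeR test (8.34% of all genes), Dhx29 lower and Srr, the serine racemase gene beside Smg6, higher. Srr had 65.3, 60.5 and 60.3 CPM in WT against 74.5, 70.7 and 73.6 CPM in cKO, which did not overlap, and a log2 fold change of 0.23 (SE 0.06, adjusted p = 0.0311), while Smg6 was at 0.06 (SE 0.05). Srr lost its call in 6 of 15 alternatives. The fitted changes of member and neighbour had the same sign in 9 of the 13 pairs. No such share over other head-to-head pairs is given here, and a link between the changes of member and neighbour was not tested. Among the pairs of opposite sign, Skiv2l at 0.16 faced Nelfe, a subunit of the polymerase pausing factor NELF, at -0.17. Exosc1 at -0.15 faced Zdhhc16 at 0.02.

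**Figure D4:**
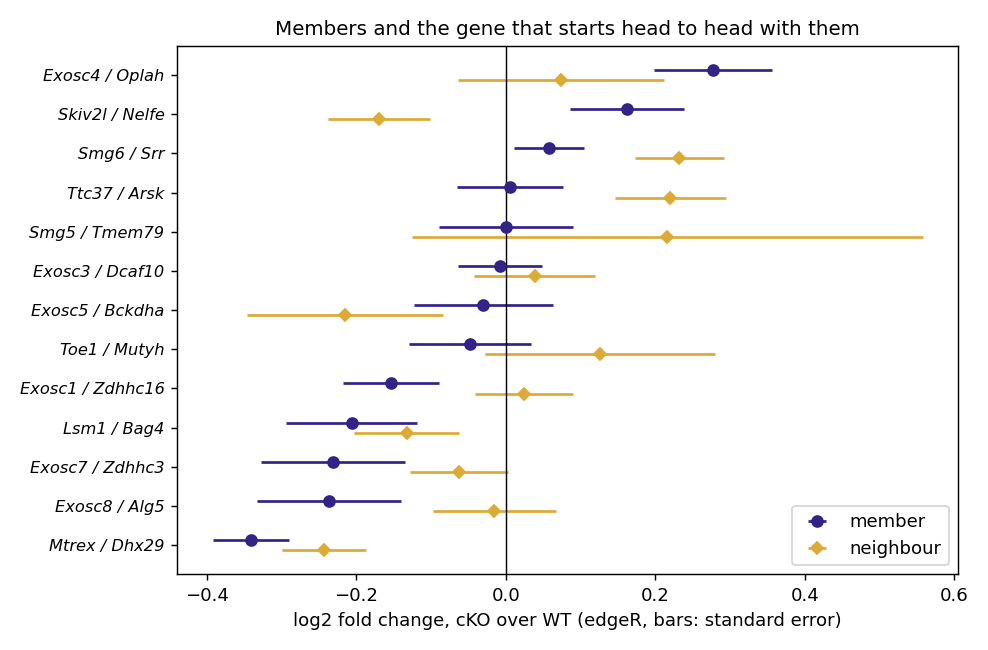
Fitted log2 fold change of cKO over WT, with standard errors, for the 13 decay genes (circles) that start head to head with a protein-coding gene and for that neighbour (diamonds). Mtrex and Dhx29 lie together at -0.34 and -0.24, while Skiv2l and Nelfe lie on either side of 0. In 9 of the 13 pairs both values lie on the same side of 0.

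The deadenylases, which remove poly(A) tails, gave no call. Of the 12, 0 fell and 0 rose in the edgeR quasi-likelihood test (4.94% and 3.4% of all genes). At an unadjusted p under 0.05 there were 0 (12.1% lower and 11.3% higher among all genes), and 0 passed in DESeq2, limma-voom or the robust edgeR fit. All 95% intervals lay within -0.26 to 0.22 on the log2 scale. For 3 of the 12 all cKO libraries lay below all WT libraries, against 14.6% of all genes, and for the other 9 the groups overlapped.

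Those 3 were Cnot1, Pan2 and Parn. Cnot1, the scaffold on which CCR4-NOT is built, had 482, 497 and 483 CPM in WT against 404, 466 and 478 CPM in cKO, and its log2 fold change was -0.12 (SE 0.06, adjusted p = 0.285). The lowest cKO value was that of replicate 1, and cKO replicate 3 lay just under the lowest WT library; without cKO replicate 1 the log2 fold change of Cnot1 was -0.049. Pan2, the catalytic subunit of the deadenylase that begins the shortening of long tails, had 73.03, 68.5 and 75.04 CPM in WT against 65.1, 64.7 and 68.2 CPM in cKO and a log2 fold change of -0.13 (SE 0.06, adjusted p = 0.215). Parn was at -0.08 (SE 0.06).

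The remaining CCR4-NOT subunits of the set stayed close to their WT values. Cnot11, a subunit outside the set, fell and is given with the partner genes below. Cnot2, which joins the scaffold to the NOT module, had 140.3, 148 and 147 CPM in WT against 145, 148 and 139.6 CPM in cKO, with the 6 libraries interleaved. Its log2 fold change was -0.01 with a 95% interval of -0.12 to 0.11. Cnot3, its structural partner, was at 0.05 (95% interval -0.05 to 0.16), and Cnot4, a ubiquitin ligase of the complex, at -0.00 (-0.12 to 0.11). Pan3, which tethers PAN2 to the tail, was at -0.03 (-0.14 to 0.09) and Toe1, which trims the ends of small nuclear RNAs, at -0.05 (-0.23 to 0.13).

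The catalytic CCR4-NOT subunits come as pairs of alternatives. Cnot6 had 186, 189 and 189.8 CPM in WT against 184, 188 and 182 CPM in cKO, and its relative Cnot6l had 122, 119 and 124 CPM in WT against 129, 119 and 114 CPM in cKO. Both pairs of groups overlapped, at log2 fold changes of -0.03 and -0.01. Cnot7 had 146, 151 and 145 CPM in WT against 146, 147 and 143 CPM in cKO, and its relative Cnot8 had 37.4, 38.8 and 41.3 CPM in WT against 41.3, 43.1 and 38.6 CPM in cKO, also with overlap, at -0.02 and 0.07. The count of Cnot8 is uncertain, since 36.2% of its transcript has a copy in the pseudogene Gm18860 at 97.8% identity.

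Decapping and 5′ to 3′ decay genes gave no call. Of the 8, 0 passed in the edgeR quasi-likelihood test (8.34% of all genes). At an unadjusted p under 0.05, 4 were lower (12.1% of all genes), namely Edc3, Dcp2, Lsm1 and Xrn2. In DESeq2 1 of the 8 (Edc3) passed, against 2129 of all 20153 genes. Their fitted log2 fold changes were below 0 in 7 of 8 (48.3% of all genes), all but Dcp1b, and 4 had every cKO library below every WT library (14.6% of all genes) while the other 4 overlapped.

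Edc3, a scaffold that stimulates the decapping enzyme, had 39.6, 34.6 and 31.3 CPM in WT against 27.1, 29.996 and 29.7 CPM in cKO. The lowest WT library, replicate 3, stood only slightly above the highest cKO library. The fitted log2 fold change was -0.28 (SE 0.09, adjusted p = 0.082), and it passed in DESeq2 (adjusted p = 0.0405) and without a filter (adjusted p = 0.0317), and without WT replicate 1 it was -0.19. Dcp2, the enzyme that removes the cap, had 105, 104 and 102 CPM in WT against 91.2, 97.6 and 91.8 CPM in cKO, with no overlap and a narrow spread in WT, and a log2 fold change of -0.15 (SE 0.05, adjusted p = 0.115). Lsm1, the subunit that defines the cytoplasmic LSM ring, was at -0.21 (SE 0.09, adjusted p = 0.178) with overlap.

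Neither exonuclease passed with all libraries in the fit. Xrn2 had 377, 381 and 378 CPM in WT against 365, 349.6 and 341 CPM in cKO, and all cKO values were below WT. On the log2 scale the difference was -0.11 (SE 0.05, adjusted p = 0.193), and it passed without cKO replicate 1 (adjusted p = 0.0343). Xrn1 was at -0.10 (SE 0.05, adjusted p = 0.258), also with no overlap. Edc4, the large decapping scaffold, was at -0.13 (SE 0.08, adjusted p = 0.382), with 91.7% of its exon bases free of another gene on its strand; its value was -0.071 without cKO replicate 1 and -0.22 without cKO replicate 3.

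The decapping activators Dcp1a and Dcp1b, which are related to each other and bind DCP2, differed in the sign of their fitted change. Dcp1a had 55.3, 58.9 and 60.6 CPM in WT against 51.4, 51.5 and 55.8 CPM in cKO, and its groups overlapped by a small margin. Dcp1b had 25.1, 26.02 and 28.3 CPM in WT against 27.8, 27.8 and 27.3 CPM in cKO, also with overlap. The log2 fold changes were -0.14 (SE 0.06, adjusted p = 0.22) and 0.06 (SE 0.08, adjusted p = 0.677), neither past the threshold.

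Nonsense-mediated decay factors gave no call. Of the 7, 0 passed in the edgeR quasi-likelihood test (8.34% of all genes). At an unadjusted p under 0.05, 2 were lower (12.1% of all genes), namely Smg1 and Upf1. In DESeq2 1 of the 7 (Smg1) passed, against 2129 of all 20153 genes. Smg1, the kinase that phosphorylates UPF1, had 203, 215 and 214 CPM in WT against 191, 192 and 182 CPM in cKO, with no overlap. Its log2 fold change was -0.16 (SE 0.05, adjusted p = 0.0676), and it passed in DESeq2 (adjusted p = 0.0415), with library size alone (adjusted p = 0.0411) and without cKO replicate 1 (adjusted p = 0.0151). Upf1, the central helicase, had 163, 157 and 147 CPM in WT against 129.7, 151 and 141 CPM in cKO. The values of cKO replicate 2 and WT replicate 3 crossed, and the log2 fold change was -0.15 (SE 0.06, adjusted p = 0.19), or -0.099 without cKO replicate 1.

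Upf2, which bridges UPF1 to UPF3, was at -0.09 (SE 0.05, adjusted p = 0.341) with no overlap. Smg5, an adaptor for decapping and deadenylation, was at 0.00 with a 95% interval of -0.19 to 0.19, and its sign changed with the scaling. Smg6, the endonuclease that cuts near the stop codon, was at 0.06 (-0.05 to 0.16), with every cKO library above every WT library.

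The UPF3 paralogs did not pass. Upf3a, the weaker activator, had 73.9, 81.2 and 76.9 CPM in WT against 76.7, 79.7 and 74.95 CPM in cKO, and the libraries were interleaved. Upf3b, its X-linked relative, had 77.7, 70.9 and 75.7 CPM in WT against 96.8, 81.3 and 75.6 CPM in cKO. The highest value of Upf3b was that of cKO replicate 1, and cKO replicate 3 lay inside the WT range. The log2 fold changes were -0.00 (SE 0.06, adjusted p = 0.976) and 0.18 (SE 0.08, adjusted p = 0.23), and without cKO replicate 1 that of Upf3b was 0.066.

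Ribosome rescue genes gave no call in edgeR (8.34% of all genes), DESeq2, limma-voom or the robust edgeR fit. At an unadjusted p under 0.05, 1 of 2 was lower (12.1% of all genes), and the median log2 fold change was -0.20. Pelo, which enters stalled ribosomes and splits them, had 10.9, 9.95 and 10.9 CPM in WT against 6.97, 7.37 and 9.66 CPM in cKO. The groups did not overlap, but cKO replicate 3 lay close to the lowest WT library. Its log2 fold change of -0.40 (SE 0.13, adjusted p = 0.0923) was the lowest of the 41, and without cKO replicate 3 it was -0.56 (adjusted p = 0.0196). Only 53.8% of its exon bases are free of the overlapping model Gm49395, so its counts cover part of the gene. Hbs1l, its GTPase partner, had 32.4, 34.4 and 34.2 CPM in WT against 33.4, 34.2 and 33.2 CPM in cKO, with full overlap, and a log2 fold change of -0.00 (95% interval -0.15 to 0.14).

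Ratios of related members were formed within each library, where no scaling of the libraries enters. The log2 ratio of Mtrex to Skiv2l, the nuclear and the cytoplasmic exosome helicase, was 2.29, 2.21 and 2.05 in WT against 1.76, 1.76 and 1.51 in cKO. Every cKO ratio lay below every WT ratio, and the means differed by -0.50 (averaging 2.18 ± 0.12 in WT against 1.68 ± 0.15 in cKO with the SD over 3 libraries; exact two-sided permutation p = 0.1, the smallest that 3 against 3 allows, and 0.25 adjusted over 5 pairs). Mtrex itself is the called gene, so this ratio is not separate from its fall.

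The log2 ratio of Dcp1a to Dcp1b was 1.14, 1.18 and 1.098 in WT against 0.88, 0.89 and 1.03 in cKO. It did not overlap between the groups, with a difference of -0.21 (exact permutation p = 0.1, adjusted 0.25). The design cannot reach a p under 0.05 for either ratio. The other 3 ratios overlapped: Upf3a to Upf3b differed by -0.17 (exact p = 0.4; -0.07 without cKO replicate 1 and -0.10 without WT replicate 2), Cnot7 to Cnot8 by -0.09 (exact p = 0.3) and Cnot6 to Cnot6l by -0.02 (exact p = 0.8).

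**Figure D5:**
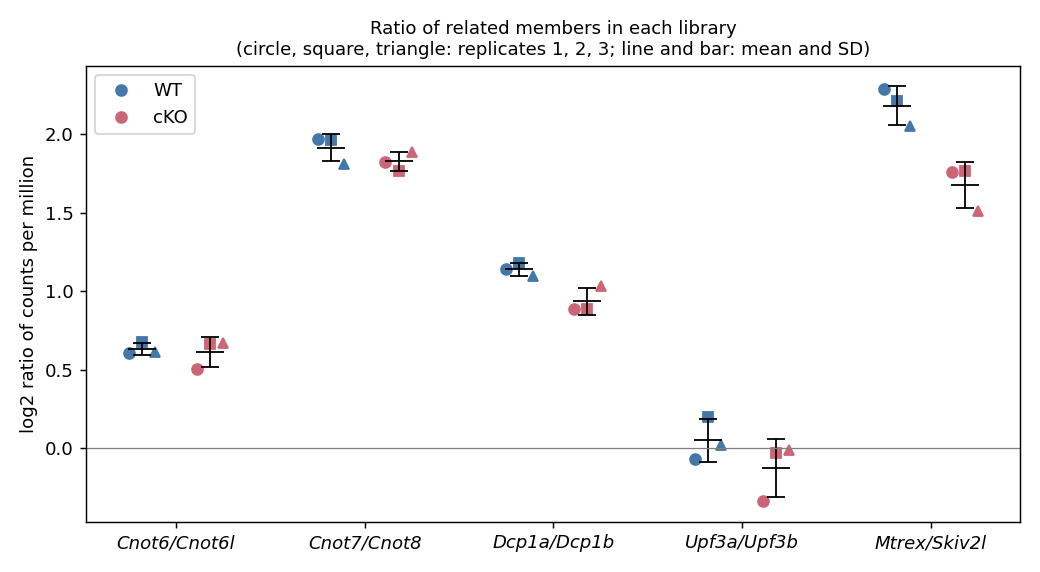
Log2 ratio of CPM values of 5 pairs of related decay genes in each library, with the mean and SD of each group (n = 3). WT and cKO separate for Mtrex/Skiv2l (means 2.18 and 1.68) and Dcp1a/Dcp1b (means 1.14 and 0.93) and overlap for the other 3 pairs.

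The starts of Dcp1a and Dcp1b are printed to show how paralogs whose ratio separated the groups differ at their promoters. Windows and strands are as for Mtrex, from RefSeq on GRCm38.p6 (Dcp1a chr14:30479315-30479614, plus strand, Dcp1b chr6:119175003-119175302, plus strand), with the letters CCGGAAG, the core of ETS factor sites, on either strand, and AAGATGGCG in capitals.
Dcp1a: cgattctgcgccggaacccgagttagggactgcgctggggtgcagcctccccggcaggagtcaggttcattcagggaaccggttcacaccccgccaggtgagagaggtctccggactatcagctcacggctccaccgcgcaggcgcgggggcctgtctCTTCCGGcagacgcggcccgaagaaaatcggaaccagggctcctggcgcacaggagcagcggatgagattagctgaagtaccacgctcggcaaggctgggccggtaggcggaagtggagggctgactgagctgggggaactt
Dcp1b: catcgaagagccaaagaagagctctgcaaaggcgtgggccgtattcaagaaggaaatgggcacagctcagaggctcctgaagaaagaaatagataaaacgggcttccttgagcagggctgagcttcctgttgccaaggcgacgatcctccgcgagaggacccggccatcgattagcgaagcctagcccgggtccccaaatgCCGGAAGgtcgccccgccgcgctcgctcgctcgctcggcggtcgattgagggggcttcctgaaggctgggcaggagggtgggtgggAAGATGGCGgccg
Dcp1a held the ETS letters once, on the reverse strand and beginning 92 bases before the start. Dcp1b held them once on the forward strand, 49 bases before the start, and AAGATGGCG 37 bases after it. These genes were picked for display once their ratio had been seen.

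Promoter windows were found for 35 of the 42 decay genes, and 5 motifs chosen after the values were seen were searched on both strands. AAGATGGCG occurred in 14.3% of the decay genes (Exosc2, Dcp1b, Cnot3, Mtrex and Upf3b) and in 2.25% of 16513 protein-coding genes. GCATGCGC, the core of NRF1 sites, occurred in 17.1% and 4.11%, and CCGGAAG in 22.9% and 13.4%. The CCAAT box letters CCAAT occurred in 34.3% and 42.1%, and the TATA box letters TATAAA in 0% and 14.3%. The 5 genes with AAGATGGCG had fitted log2 changes from -0.34 (Mtrex) to 0.18 (Upf3b), and a match is only a description of the sequence.

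Partners of the machinery, in lists named by pathway, gave a few calls. Of 114 partner genes, cofactors and known targets, 8 fell and 1 rose, with 4.94% lower and 3.4% higher among all genes, and their median log2 fold change was -0.04. Among 18 exosome cofactors 1 fell, Ncbp2, the small subunit of the nuclear cap-binding complex, which is linked to NEXT and PAXT. It had 80.9, 76.8 and 77.5 CPM in WT against 59.9, 64.6 and 60.9 CPM in cKO, with no overlap, at a log2 fold change of -0.34 (SE 0.06, adjusted p = 0.00339) in the edgeR quasi-likelihood test. The exosome's own catalytic subunit Dis3 had 122, 149 and 146 CPM in WT against 119.6, 122 and 117 CPM in cKO and was at -0.22 (SE 0.07, adjusted p = 0.0885), and its cytoplasmic relative Dis3l was at 0.15 (SE 0.07, adjusted p = 0.226); both were named after their values were seen.

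Among 25 deadenylation partners 4 fell and 0 rose (4.94% and 3.4% of all genes). Cnot11, a CCR4-NOT subunit that is no member of the set above, had 87.5, 94.3 and 91.8 CPM in WT against 73.6, 75.8 and 73.4 CPM in cKO, at a log2 fold change of -0.30 (SE 0.06, adjusted p = 0.00646). Nanos1, an RNA-binding recruiter of CCR4-NOT, had 5.21, 5.87 and 4.46 CPM in WT against 2.67, 2.92 and 2.92 CPM in cKO and was at -0.87 (SE 0.16, adjusted p = 0.00642). Pnldc1, a PARN-like exonuclease that trims piRNAs in germ cells, had 4.59, 5.503 and 6.08 CPM in WT against 2.59, 3.22 and 4.099 CPM in cKO and was at -0.70 (SE 0.19, adjusted p = 0.0403). Pabpc1, the cytoplasmic poly(A)-binding protein, had 1906, 1873 and 1890.1 CPM in WT against 1627, 1727 and 1710.0 CPM in cKO and was at -0.16 (SE 0.04, adjusted p = 0.0369). In none of the 4 did the groups overlap. Cnot11 and Nanos1 lost their calls without WT replicate 2 (adjusted p = 0.0635 and 0.0501), and Pnldc1 and Pabpc1 without WT replicate 1, 2 or 3 or cKO replicate 2. This list also holds the germ cell markers Nanos2 and Nanos3.

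Among 19 decapping partners 1 fell (4.94% of all genes), Lsm4, a subunit of the LSM ring. It had 84.5, 95.4 and 96.4 CPM in WT against 54.02, 58.3 and 59.2 CPM in cKO, with no overlap, at a log2 fold change of -0.69 (SE 0.07, adjusted p = 9.62e-05). The gene lies on chromosome 8 between 30 and 95 Mb, where 20.5% of 507 genes passed the test against 8.34% of all genes. Members of the same LSM ring outside that stretch included Lsm2 at -0.24 (SE 0.07, adjusted p = 0.0528) and Lsm7 at 0.01 (SE 0.07), and Lsm6, which lies inside it, was at 0.02 (SE 0.06). The helicase Ddx6, which links deadenylation to decapping, was at -0.13 (SE 0.05, adjusted p = 0.132). Of the 7 decay genes on chromosome 8, 2 (Cnot7 and Upf1) lie in that stretch, and neither passed.

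Among 17 nonsense-mediated decay partners 1 fell (4.94% of all genes), Etf1, the release factor that reads stop codons. It had 232, 229 and 229 CPM in WT against 193, 206 and 201 CPM in cKO, with no overlap, at a log2 fold change of -0.20 (SE 0.05, adjusted p = 0.0222). None of the 14 ribosome rescue and quality control genes passed in the edgeR fit (8.34% of all genes), and 0 passed in DESeq2, limma-voom or the robust edgeR fit. At an unadjusted edgeR p under 0.05, 3 were lower and 1 was higher, against 12.1% and 11.3% of all genes.

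Among 22 transcripts known as targets of nonsense-mediated decay 1 rose and 1 fell (3.4% and 4.94% of all genes). Gas5, a noncoding snoRNA host whose spliced RNA is degraded by this pathway, had 98.7, 101 and 94.96 CPM in WT against 139, 116 and 107 CPM in cKO. It was highest in cKO replicate 1, all cKO libraries lay above WT, and the log2 fold change was 0.29 (SE 0.08, adjusted p = 0.0497), or 0.18 without cKO replicate 1. Hbp1, a transcription repressor, had 183, 175 and 171 CPM in WT against 150.3, 155 and 148 CPM in cKO and was at -0.22 (SE 0.05, adjusted p = 0.0198), and 24.6% of its exon bases are antisense to Cog5. The stress regulator Atf4, a target with upstream reading frames, was at 0.07 (SE 0.06), and the median of the 22 was 0.06. Gas5 passed by a small margin and lost its call with DESeq2 size factors, library size alone, a filter at 1 CPM, and without WT replicate 1, 2 or 3 or cKO replicate 2. Etf1 and Hbp1 lost theirs without any 1 WT replicate or cKO replicate 2.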

How the data were processed

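Libraries of 3 WT and 3 cKO whole testes were primed with random and poly(T) primers, strand-selected and depleted of targeted transcripts, per the labels, whose molecule field names polyA RNA. The authors deposited raw read counts for each gene. Per the file headers, they counted with featureCounts 1.6.4 on GENCODE M18, using the gene's strand, with reads over more than 1 gene left out by its settings. The submitters' processing notes name cutadapt, HISAT2 and GRCm38.p5. Symbols came from GENCODE M21 (54165 of 54232 genes), and 0 columns lacked a sample.

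The filterByExpr function (at least 10 counts, total of 15) kept 20153 genes. After TMM scaling, WT and cKO were compared by the two-sided quasi-likelihood test of edgeR 4.0.16 (R 4.3.3), without covariates, and Benjamini-Hochberg adjustment covered every gene kept. A gene passed, rose or fell at an adjusted p under 0.05. CPM values use TMM-scaled library sizes, and TPM uses merged exon length. Ratios used exact permutation tests over samples. The procedure was tested on simulated data.

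The members, lists, alternatives and the rule for named genes were chosen with earlier results of these data known. Values in every library are given for called members, the 2 members of lowest p and the one of highest level per length in each subgroup, both members of each pair, and called partner genes (at most 5 per list), with the 2 most abundant markers of a list mentioned. Exosc9, Dis3, Dis3l, Lsm2, Lsm6, Lsm7, Ddx6, Atf4, the head-to-head neighbours, the motifs and the promoters shown were chosen after values were seen. No 2 libraries of a group agreed within sampling noise (chi-square per degree of freedom of at least 4.18). Other scalings tried were DESeq2 size factors and plain library size, other filters were none and 1 CPM in 3 samples, and other tests were DESeq2 1.42.0, limma-voom (limma 3.58.1), robust edgeR and a fit blocked by replicate number. Genes of the mitochondrion, haemoglobin, ribosomal RNA and small RNAs, and each library in turn, were also left out. Copies were sought with minimap2 2.31-r1302, requiring 95% identity across 30% of a transcript. Figures were drawn with matplotlib 3.10.9.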

Additional observations from a re-analysis of the deposited data

How the results depend on the processing

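Mtrex passed in all 15 alternatives, and the count of decay genes that fell was 1. That count was 3 with library size alone, 3 with no filter, 2 with at least 1 CPM in 3 samples, 4 in DESeq2 and 2 with the replicate block. Among all genes, in that order, 1200 of 20153, 1191 of 43855, 1098 of 15860, 1224 of 20153 and 1058 of 20153 fell, against 996 in the main fit. Leaving out 1 library gave 1 to 4 decay genes that fell, with 4 without cKO replicate 1, where 1705 of all 20633 genes fell. The count of decay genes that rose, 0, was 1 with at least 1 CPM in 3 samples, in DESeq2, in limma-voom and in the robust fit. In that order 774, 905, 747 and 754 of all genes rose, against 685 in the main fit. With 1 library left out, 387 to 1705 of all genes fell and 236 to 1670 rose. Partner genes that fell numbered 8, against 13 in DESeq2 and 2 to 15 with 1 library left out, and those that rose 1, against 0 with DESeq2 size factors, library size alone or at least 1 CPM and 0 to 3 with 1 library left out. Over all genes the count of calls ran from 623 without WT replicate 2 to 3375 without cKO replicate 1. The median of all decay genes, -0.08, was -0.10 with library size alone, -0.091 with no filter and -0.097 to -0.067 with 1 library left out. In the same way, that of exosome and helicases ran from -0.15 to -0.11 and that of decapping and XRN from -0.16 to -0.11. The median of UPF and SMG ran from -0.060 to -0.0036. Values near 0 changed sign without passing: Ttc37 was -0.014 with library size alone and -0.0042 with no filter, and Smg5 was -0.0012 with DESeq2 size factors, -0.020 with library size alone, -0.0074 with no filter, -0.00015 with at least 1 CPM in 3 samples, -0.0016 in DESeq2 and -0.0068 with the replicate block. With 1 library left out, ranges that crossed 0 were -0.016 to 0.0044 for Exosc3, -0.13 to 0.052 for Exosc5, -0.048 to 0.051 for Ttc37, -0.030 to 0.014 for Cnot2, -0.039 to 0.024 for Cnot4, -0.067 to 0.023 for Cnot6l, -0.057 to 0.0031 for Pan3, -0.097 to 0.015 for Toe1, -0.036 to 0.033 for Upf3a, -0.084 to 0.10 for Smg5 and -0.031 to 0.015 for Hbs1l. The cause of these shifts was not tested. The replicate numbers did not pair the libraries (correlations of deviations of 0.03, 0.01 and 0.07 for same-numbered libraries), and WT replicate 2 correlated best with cKO replicate 1. The second call under the block was Exosc8. Every decay gene tested had at least 183 counts in every library.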
